A study of Ovis aries with 32 samples.

Results

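The middle cerebral artery of sheep was compared between untreated segments and segments exposed to phenylephrine (PHE), an agonist of alpha-1 adrenergic receptors, at 4 ages. Described here are 105 of the 15008 probes on the array, those whose signal differed with PHE in the premature fetus and in the newborn lamb and hardly at all in the near-term fetus. A probe was chosen when at each of those 3 ages it had a group whose 4 arrays all read well above background, when its mean log2 signal differed between PHE and untreated by 0.8 or more in the same direction in the premature fetus and the newborn lamb, and when that difference was under 0.3 in size in the near-term fetus. Near-term PHE replicate 1 was left out of the near-term difference, though it counted in the background filter, and probes with symbols on a fixed list were left out. Of the 105 members, 63 were higher with PHE (rising members) and 42 were lower (falling members).

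RNA from artery segments was labelled with 1 dye and hybridised to 32 Agilent sheep arrays, 4 untreated and 4 PHE-treated at each age. Treated segments were exposed to 10 µM PHE for 30 minutes in an organ bath. The groups were the premature fetus at 96 days of gestation, the near-term fetus at 146 days by the sample labels and 140 days by the design text, the newborn lamb at 12 hours or 5 days, and the adult sheep at 2 years or 18 to 24 months. The question of the comparison was how the arterial response in RNA to alpha-1 stimulation differs with maturation. No label states which animal an array came from, so every p-value measures the spread between these samples.

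Alpha-1 adrenergic receptors couple to phospholipase C, which raises calcium in smooth muscle and activates protein kinase C and the mitogen-activated protein kinases. These kinases lead to immediate early transcription factors within minutes and, through the inhibitor kinase complex, to the transcription factor NF-kB, whose target genes include cytokines, their receptors and the enzymes that handle oxidants. A short exposure mainly reaches the first wave of induced genes and, on the other side, short-lived transcripts.

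Near-term arrays stood apart before any result. The 75th percentile of intensity was 639 to 985 on premature arrays, 647 to 864 on newborn arrays and 821 to 1709 on adult arrays, and 124 to 1669 on near-term arrays. Near-term untreated replicate 4 was the dimmest array, with a 75th percentile 1.41 times background, and near-term PHE replicate 4 had 95.6% of its spots well above background. The near-term PHE arrays shared 1 slide with untreated replicate 4, and untreated replicates 1 to 3 lay on other slides, whereas all premature arrays shared a slide and so did all newborn arrays. By scan date, premature and newborn arrays formed 1 batch and near-term and adult arrays another, so that scan and the contrast between these ages cannot be told apart, while PHE and untreated arrays of an age shared the scan. In the adult sheep, untreated replicates 1 and 2 lay on the slide of the 4 PHE arrays and untreated replicates 3 and 4 on another. The median standard deviation of rising members was 0.68 among untreated and 0.62 among PHE near-term arrays, against 0.25 and 0.30 in the premature fetus, 0.29 and 0.33 in the newborn lamb and 0.41 and 0.59 in the adult sheep. For falling members it was 0.42 and 0.31 in the near-term fetus. A near-term difference under 0.3 was thus smaller than the spread between near-term arrays and does not show that a gene did not respond there.

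Among the probes past the signal filter, 983 differed by 0.8 or more in the same direction in the premature fetus and the newborn lamb, and 115 of them were under the near-term limit, of which 10 carried a symbol to be left out. Of the 928 such responders without a symbol to be left out, 611 differed by 0.8 or more in the same direction in the near-term fetus too. A further 178 lay between the limits in the same direction, and 34 differed by 0.3 or more in the opposite direction. The members were thus 105 of 928 responders. Just inside the size limit were A_70_P070556, at -0.81 in the premature fetus, and A_70_P015806, at -0.82, and just outside were A_70_P007686 at -0.79 and A_70_P000366 at 0.79. Just inside the near-term limit were A_70_P071626 at 0.30 and A_70_P061316 at -0.30, and just outside were POLB and ST3GAL1, both at 0.31.

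Selected on 3 of the 4 ages, rising members had a median difference of 1.30 in premature, 1.34 in newborn and 0.08 in near-term arteries, and falling members -1.07, -1.01 and -0.02. Measured differences of rising members ranged from 0.83 to 3.53 in the premature fetus and from 0.82 to 5.13 in the newborn lamb, and those of falling members from -3.16 to -0.81 and from -1.96 to -0.82. The 3.53 is that of DDIT4 and the -3.16 and -1.96 those of TERT, each against a group with no array well above background. All PHE arrays lay above all untreated arrays for 56 of 63 rising members in the premature fetus and 60 in the newborn lamb, as for 1862 and 1202 of all 9062 probes past the filter, and limma called 15.4% and 10.4% of all probes tested higher at these ages. All PHE arrays lay below all untreated arrays for 41 of 42 falling members in the premature fetus and 33 in the newborn lamb, as for 2438 and 1789 of all, with 15.1% and 9.45% called lower. Near-term groups were apart for 0 rising members and 1 falling member, and for 1583 of all 9062 probes upward and 1868 downward, with 8.02% called higher and 8.43% lower. Nothing is read from these counts, since the members were chosen by these differences.

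**Figure D1:**
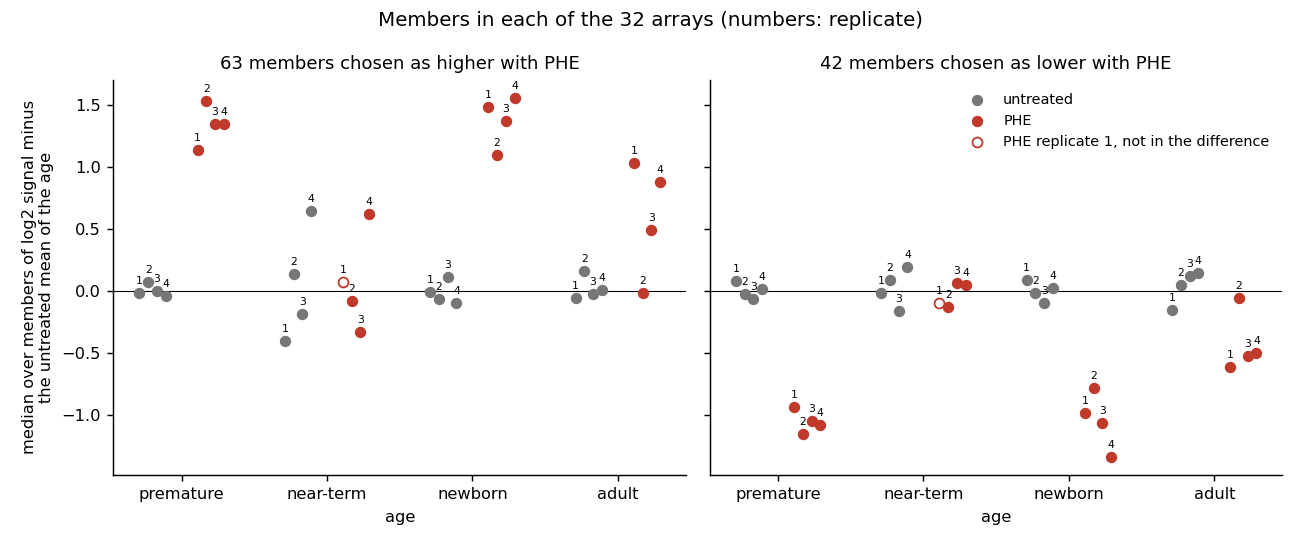
Median over rising (left) and falling members (right) on each array, relative to the untreated mean of the same age (log2), with 1 numbered point per array. Premature and newborn PHE arrays stand apart by selection, near-term PHE arrays mix with untreated arrays, and adult PHE replicate 2 lies with the untreated adult arrays for rising members (-0.02).

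Inflammatory signalling was represented by NFKB1, which encodes the p105 precursor of the p50 subunit of NF-kB, by TLR4, the receptor for endotoxin, by the cytokine IL18, by IFNAR2, a chain of the type I interferon receptor, and by S100A9, a calcium-binding protein abundant in neutrophils and monocytes. NFKB1 in the premature fetus was -0.66, -0.91, -0.94 and -0.94 in untreated replicates 1 to 4 and 0.33, 1.39, 0.75 and 0.88 with PHE. In the newborn lamb it was -0.64, -0.93, -0.76 and -0.69 untreated and 0.35, 0.42, 0.60 and 0.80 with PHE. At both ages its PHE arrays were all above the untreated ones. In the near-term fetus NFKB1 was -0.30, -0.45, -0.68 and -0.83 untreated and 0.44, -0.24, -0.44 and -0.22 with PHE. The highest value belonged to replicate 1, which was not used in the near-term difference. With that array kept, NFKB1 would lie outside the near-term limit of 0.3. In the adult sheep it was -0.68, -0.16, -0.41 and -0.02 untreated and 0.05, -0.56, 0.14 and 0.07 with PHE. Adult PHE replicate 2 was the only PHE array among the untreated values, and the adult difference of 0.24 (SE 0.22, higher on 3 of 4 PHE arrays than on any untreated array) had an adjusted p of 0.675 by limma.

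S100A9 was the member with the largest measured newborn difference, 5.13. It was -7.28, -5.43, -2.85 and -5.51 in untreated newborn arteries, where only 1 of 4 arrays was well above background, and -0.65, -0.28, 0.11 and 0.29 with PHE. In the premature fetus it was -3.89, -4.45, -3.41 and -4.47 untreated and -1.05, -0.18, -0.82 and -1.06 with PHE. The PHE arrays of both ages lay above every untreated array. Near-term values of S100A9 were -4.58, -2.50, -3.83 and -0.69 untreated and -3.12, -5.05, -2.49 and -1.28 with PHE, with untreated replicate 4 the highest. In the adult sheep it was -7.74, -4.86, -5.20 and -7.86 untreated and -4.77, -6.42, -5.86 and -1.75 with PHE, well above background on 2 arrays of each group, and was not tested. TLR4 differed by 1.55, 0.91, 0.23 and 0.36 in the premature, newborn, near-term and adult arteries, and IL18 by 1.13, 1.05, 0.22 and 0.89. The 2 probes of IFNAR2, both members, differed by 1.08 and 1.02, by 0.84 and 0.82, by 0.04 and -0.09 and by -0.09 and -0.13 at the same ages.

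Members of the NF-kB and Toll list and of the cytokine list stood beside many genes that are no members. Over all probes tested, limma called 15.4% higher and 15.1% lower in the premature fetus, 10.4% and 9.45% in the newborn lamb, 8.02% and 8.43% in the near-term fetus and 1.71% and 0.292% in the adult sheep, the background to every count of calls on a list. Among the others on the NF-kB list, 15 of 18 genes tested rose with PHE in the premature fetus, 14 of 16 in the newborn lamb and 7 of 17 in the near-term fetus, and 1 of 18 list genes rose in the adult sheep. Among the other cytokines, receptors and decoys, 30 of 33 rose in the premature fetus, 26 of 30 in the newborn lamb and 11 of 25 in the near-term fetus, and 1 of 20 list genes in the adult sheep. NFKBIA, the inhibitor that NF-kB itself induces, rose by 4.24 (SE 0.17), 2.40 (SE 0.21) and 2.26 (SE 0.39) in the premature, newborn and near-term arteries, and its adult difference was 1.12 (SE 0.37). IKBKB, the kinase that releases NF-kB, rose by 2.54 (SE 0.12) and 1.95 (SE 0.11) in the premature and newborn arteries, and differed by 1.18 (SE 0.36) in the near-term fetus with no call. The tumour necrosis factor receptor TNFRSF12A rose by 3.14 (SE 0.20), 1.63 (SE 0.27) and 2.82 (SE 0.48) at the premature, newborn and near-term ages. Of the 69 members with a symbol, 60 got it through group means printed in the study's supplement, which exist only for genes listed there as altered, so counts over named genes are counts over genes that the study had already picked from these samples and are not independent evidence of their direction.

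S100A9 is also a leukocyte marker, and 13 of the 21 leukocyte markers listed had a probe with a symbol. Without S100A9, 5 of 9 leukocyte markers tested rose and 2 fell with PHE in the premature fetus, 4 of 7 rose and 1 fell in the newborn lamb, 1 of 6 rose and 1 fell in the near-term fetus, and of 4 tested in the adult sheep 0 were called by limma (2 higher at an unadjusted p under 0.05). Their summed signal, in multiples of the array 75th percentile and without S100A9, was 3.89, 4.35, 3.81 and 4.14 in untreated premature arteries and 5.91, 8.32, 5.56 and 6.90 with PHE. In the newborn lamb it was 5.46, 3.83, 7.50 and 2.51 untreated and 5.99, 7.60, 8.96 and 6.65 with PHE, so that untreated replicate 3 lay above PHE replicates 1 and 4, while the sum was higher with PHE in 4 of 4 pairs of equal replicate number at this age and in the premature fetus, as S100A9 was. The near-term sums were 4.22, 7.64, 4.93 and 4.11 untreated and 6.36, 4.23, 6.74 and 5.48 with PHE, and the adult sums 1.80, 2.05, 3.45 and 2.36 untreated and 3.65, 2.22, 2.71 and 3.81 with PHE. The premature sums rest mostly on CD14 and CD3G, at means of 0.70 and 0.50 untreated, with CD68 next at -1.56. In the premature fetus the 5 that rose were FCGR1A, CD68, CD86, CD53 and CD14, and the 2 that fell were TRAC and CD247. FCGR1A and CD53 at the premature and newborn ages, and CD86 in the newborn lamb, were tested through their PHE arrays only, where they were high. In the near-term fetus FCGR1A, CD86 and CD53 stood at -1.81, -0.87 and -0.68 and were too dim to be tested. CD68 stood at 1.19 there and CD14 at -1.39, both without a call. CD14, CD68, CD3G and TRAC were well above background on every array, and CD3D and ITGAM were not well above background on any untreated premature array. Of the smooth muscle markers only CALD1 and CNN1 had a probe with a symbol, and CNN1 was well above background on every array. In whole tissue, a change in the number of cells of a type and a change in RNA per cell cannot be told apart, and the part of leukocytes in S100A9 and its like was not tested.

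Among regulators of growth factor signalling and cell fate, SMAD7, the intracellular inhibitor of transforming growth factor beta receptors, and the ligand BMP2 came from the transforming growth factor list, and SOX9, a factor of cartilage and progenitor cells, and PRDM1, a transcriptional repressor that drives terminal differentiation, from the list of developmental transcription factors. SMAD7 was -3.72, -3.63, -3.85 and -4.67 in untreated premature arteries and -1.89, -1.48, -1.65 and -2.60 with PHE. In the newborn lamb it was -5.66, -4.92, -5.19 and -4.80 untreated, well above background on no array, and -3.04, -2.28, -1.59 and -2.24 with PHE, which makes the newborn level at least 5.59-fold higher with PHE. The groups were apart at both ages. In the near-term fetus SMAD7 was -3.44, -0.94, -1.72 and -0.01 untreated and -1.85, -1.04, -2.55 and -0.18 with PHE, fully mixed. In the adult sheep it was -3.36, -2.48, -2.21 and -3.01 untreated and -3.16, -3.41, -5.36 and -1.88 with PHE, a difference of -0.69 (SE 0.64) with an adjusted p of 0.681 by limma and the highest and the lowest value both among PHE arrays.

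SOX9 was -2.53, -2.37, -2.93 and -2.68 in untreated premature arteries and -0.95, -0.87, -0.82 and -0.96 with PHE. In the newborn lamb it was -2.14, -2.80, -2.22 and -3.65 untreated and -0.14, -0.71, -0.01 and -0.04 with PHE, again without overlap. Near-term SOX9 rested on a single array, since untreated replicate 3 stood at 1.24 and untreated replicates 1, 2 and 4 at -5.80, -3.95 and -5.06, beside -2.81, -4.03, -2.47 and -3.28 with PHE. Adult SOX9 was -7.79, -5.88, -7.12 and -8.32 untreated, well above background on no array, and -4.19, -7.46, -4.51 and -2.84 with PHE, at least 2.57-fold higher, with 3 of 4 PHE arrays well above background, and it was not tested. PRDM1 differed by 1.59, 3.11, 0.09 and 1.19 in the premature, newborn, near-term and adult arteries, with 1 of 4 untreated newborn arrays well above background, and BMP2 by 1.36, 1.83, 0.27 and 0.16. Of the other genes on the transforming growth factor list, 6 of 25 rose and 4 fell in the premature fetus, 5 of 23 rose and 3 fell in the newborn lamb, 6 of 25 rose and 2 fell in the near-term fetus, and 3 of 27 list genes rose in the adult sheep. INHBA and TGFBR1 had no call at any age on the probes quoted. Of the other developmental factors, 4 of 12 rose and 7 fell, 3 of 10 rose and 4 fell, 1 of 12 rose, and in the adult sheep 1 of 13 rose, with FOXC1 higher by 1.09 (SE 0.15), 1.26 (SE 0.18), 1.04 (SE 0.32, no call) and 1.02 (SE 0.19) at the premature, newborn, near-term and adult ages. GATA6 fell by 0.59 (SE 0.10) in the premature fetus and had no call at the other ages.

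Stress and redox genes formed the next group. TXNRD1 encodes cytosolic thioredoxin reductase and GCLM the modifier subunit of the enzyme that starts glutathione synthesis, DDIT4 restrains the growth kinase mTOR under stress, and ATF6 is a sensor of misfolded protein. TXNRD1 was 1.74, 1.31, 1.39 and 1.40 in untreated premature arteries and 2.53, 2.83, 2.73 and 2.94 with PHE. It was 1.29, 0.67, 1.59 and 1.59 in untreated newborn arteries and 3.11, 2.01, 3.21 and 3.86 with PHE. PHE arrays were above all untreated arrays at both ages. In the near-term fetus TXNRD1 was 1.13, 0.73, 1.06 and 0.86 untreated and 1.65, 0.87, 0.43 and 1.07 with PHE, and in the adult sheep 1.14, 1.33, 1.05 and 1.41 untreated and 2.63, 0.99, 2.01 and 2.47 with PHE. Adult PHE replicates 1, 3 and 4 were above every untreated array and PHE replicate 2 below them all. The adult difference of TXNRD1 was 0.79 (SE 0.33) with an adjusted p of 0.330 by limma. Without PHE replicate 2 it was 1.14 (SE 0.20) and a call, higher on 3 of 3 PHE arrays. That array was the lowest, so this follows from leaving it out and nothing is read from it. DDIT4 was at least 7.68-fold higher with PHE in the premature fetus, where no untreated array was well above background (measured difference 3.53), with 2.02, -0.22 and 0.38 in the newborn, near-term and adult arteries. GCLM differed by 1.89, 1.04, 0.12 and 0.04 at the same ages and ATF6 by 1.94, 1.63, 0.15 and 1.25. The newborn level of ATF6 was at least 2.34-fold higher with PHE, and ATF6 was not tested in the adult sheep. Of the other antioxidant genes, 4 of 12 rose and 4 fell in the premature fetus, 4 of 12 rose and 2 fell in the newborn lamb, and 1 of 12 rose and 5 fell in the near-term fetus. By limma 0 of 13 adult list genes were called (3 higher at an unadjusted p under 0.05), and FTH1 and FTL, the chains of ferritin, had no call at any age.

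In the vessel wall, members were PLAT, the tissue plasminogen activator that endothelium releases to dissolve clots, the angiopoietin ANGPT2, which loosens endothelial contacts, the ephrin EFNA4, and GJA4, the gap junction protein connexin 37. PLAT was 2.37, 1.92, 2.09 and 2.17 in untreated premature arteries and 3.07, 3.75, 2.95 and 3.52 with PHE, and 1.75, 2.00, 1.95 and 1.47 untreated and 2.63, 2.92, 2.82 and 3.36 with PHE in the newborn lamb. Near-term PLAT was 2.22, 2.65, 2.05 and 1.89 untreated and 3.01, 2.40, 2.09 and 1.71 with PHE, with PHE replicate 1 the highest, PHE replicate 4 the lowest and the other PHE arrays among the untreated values. In the adult sheep it was -1.21, -0.71, -1.39 and -1.19 untreated and 1.97, -0.04, -0.46 and 2.71 with PHE. All 4 adult PHE arrays lay above the untreated ones and replicates 1 and 4 far above replicates 2 and 3. The adult difference of PLAT was 2.17 (SE 0.65) with an adjusted p of 0.164 by limma, which is no call. ANGPT2 differed by 0.86, 1.64, -0.15 and 0.84 in the premature, newborn, near-term and adult arteries.

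GJA4 was a falling member. Premature GJA4 was 0.02, -0.13, -0.19 and 0.10 untreated and -1.09, -1.41, -1.25 and -0.96 with PHE, and newborn GJA4 was -1.02, -1.12, -1.12 and -2.25 untreated and -2.01, -1.87, -3.05 and -3.15 with PHE, where untreated replicate 4 lay among the PHE values and PHE was lower in 4 of 4 pairs of equal number. In the near-term fetus it was -0.67, -1.64, -2.73 and -1.47 untreated and -2.11, -2.45, -1.21 and -1.83 with PHE, mixed. Adult GJA4 was -7.60, -6.95, -3.16 and -7.71 untreated and -6.68, -7.30, -7.20 and -4.63 with PHE, was not tested and has no fold. EFNA4 was the other falling member of this group, at -1.26, -1.11, 0.25 and 0.11. Of the other plasminogen activator genes, 3 of 4 rose in the premature fetus and 2 of 4 in the newborn lamb, and by limma 0 of 2 in the near-term fetus (1 lower at an unadjusted p under 0.05) and 0 of 3 list genes in the adult sheep (2 higher) were called. PLAU, the urokinase, rose by 1.24 (SE 0.26) and 2.81 (SE 0.45) in the premature and newborn arteries, and ANXA2, a plasminogen receptor, had no call at any age. Of the other angiogenic factors, 8 of 17 rose and 3 fell, 8 of 16 rose and 1 fell, 5 of 18 rose and 1 fell, and in the adult sheep 1 of 15 rose. The ephrin EFNB1 fell by 1.66 (SE 0.10), 0.92 (SE 0.16) and 1.43 (SE 0.34) in the premature, newborn and near-term arteries, and the growth factor FGF7 had no call at any age. Of the other smooth muscle and endothelial signalling genes, 8 of 20 rose and 4 fell, 7 of 20 rose and 4 fell, 6 of 18 rose and 1 fell, and in the adult sheep 4 of 18 rose. RGS2, which ends signalling of the G protein that alpha-1 receptors use, rose by 3.88 (SE 0.24) in the premature fetus, 1.00 (SE 0.27) in the newborn lamb and 2.01 (SE 0.27) in the adult sheep, and differed by 2.26 (SE 0.66) in the near-term fetus with no call, while CAV1, the coat protein of caveolae, had no call at any age on the probe quoted, which stood at 1.01 in the near-term fetus with its 2 other probes below 0, down to -1.22.

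**Figure D2:**
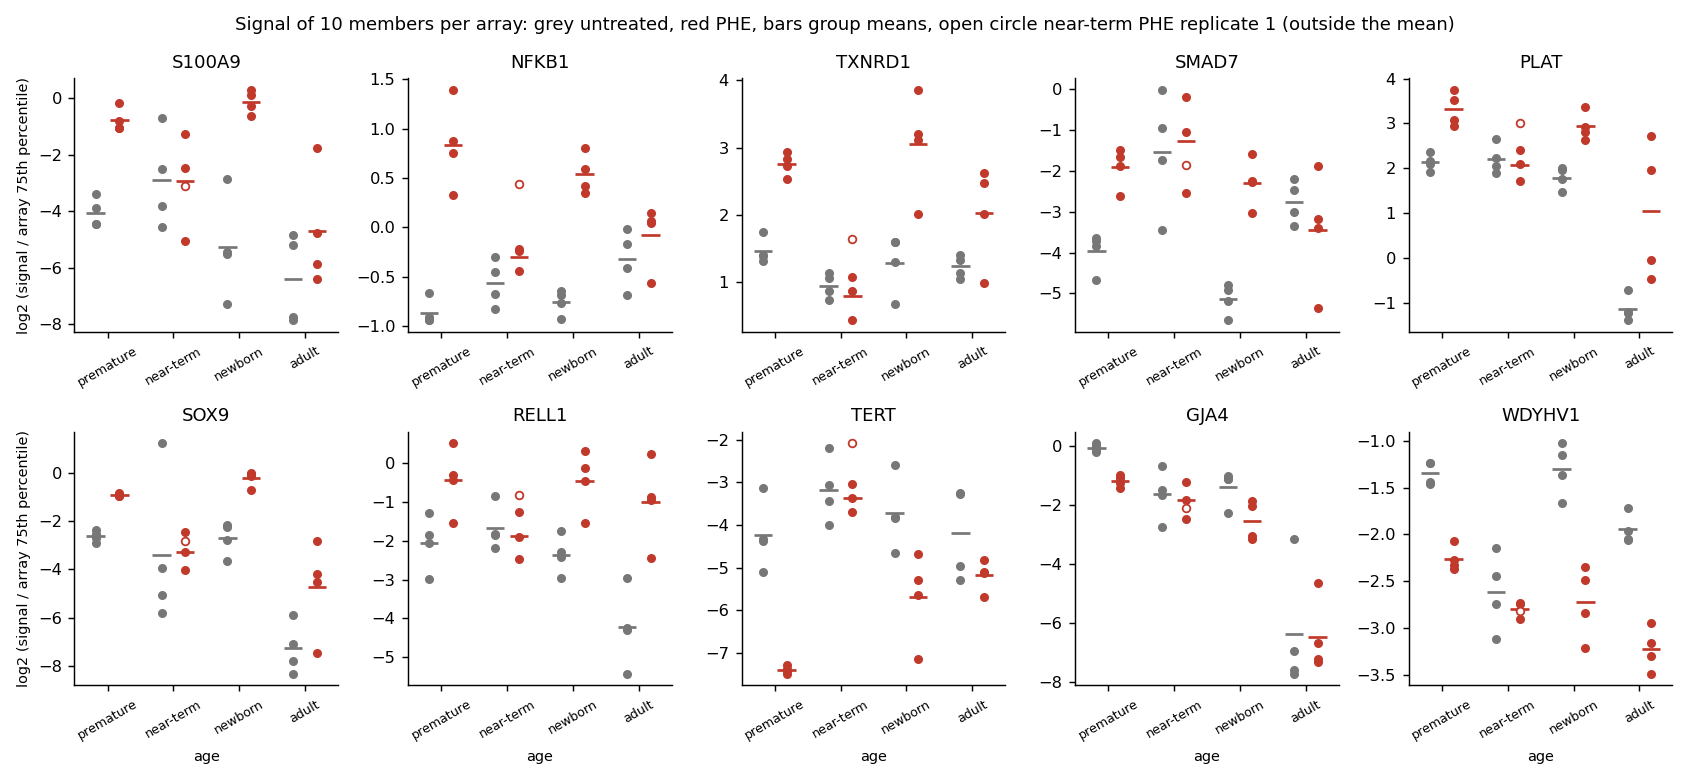
Log2 signal over the array 75th percentile of 10 members by age, with 1 point per array (grey untreated, red PHE), bars at group means and near-term PHE replicate 1 as an open circle outside the mean. Premature and newborn group means are apart by selection, near-term groups overlap, and SOX9 has 1 untreated near-term array at 1.24.

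The falling members held the reverse transcriptase of telomerase, TERT, the delta tubulin TUBD1 of centrioles, and GTPBP3, which modifies mitochondrial transfer RNA. Others were the repressor PATZ1, SNAPC4, a subunit of the complex that activates small nuclear RNA genes, SAC3D1, a centrosome protein, and PLEKHF1, a lysosomal adaptor. TMEM62, a membrane protein of little known function, and C8H9ORF156, a methyltransferase of transfer RNA, were also among them. TERT was -3.14, -5.10, -4.38 and -4.32 in untreated premature arteries and -7.48, -7.42, -7.37 and -7.29 with PHE, where no array was well above background, so that it was at least 1.89-fold lower with PHE. In the newborn lamb it was -4.64, -3.82, -3.82 and -2.60 untreated and -7.13, -4.66, -5.64 and -5.28 with PHE, again with no PHE array well above background, at least 2.01-fold lower. The groups did not overlap at either age. Near-term TERT was -3.07, -3.43, -4.00 and -2.19 untreated and -2.08, -3.04, -3.69 and -3.36 with PHE, and adult TERT -5.29, -4.97, -3.25 and -3.27 untreated and -5.10, -5.12, -4.81 and -5.69 with PHE. The adult difference of -0.98 (SE 0.48) came with an adjusted p of 0.412 by limma. Adult untreated replicates 1 and 2, on the slide of the PHE arrays, lay among the PHE values. Untreated replicates 3 and 4, on another slide, lay above every PHE array. Slide and PHE thus cannot be told apart in this difference.

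TUBD1 differed by -1.60, -1.34, -0.24 and -0.67 in the premature, newborn, near-term and adult arteries. The transfer RNA enzymes were GTPBP3, at -1.12 in premature, -0.06 in near-term and -0.42 in adult arteries and past the size limit in the newborn lamb by selection, and C8H9ORF156, at -1.42, -1.93 and -0.22 before adulthood and with no call in the adult sheep. PATZ1 stood at -1.77, -1.59, 0.22 and -0.32, SNAPC4 at -1.12, -1.11, -0.27 and -0.08, SAC3D1 at -1.15, -1.40, -0.02 and -0.54, PLEKHF1 at -1.23, -1.20, 0.22 and -0.78 and TMEM62 at -1.17, -1.35, 0.08 and -0.89. Of the other replication, repair and mitosis genes, 7 of 15 rose and 6 fell in the premature fetus, 7 of 14 rose and 5 fell in the newborn lamb, 1 of 14 rose in the near-term fetus and 1 of 12 list genes rose in the adult sheep. The nuclease MUS81 fell by 1.20 (SE 0.17) and 1.06 (SE 0.22) in the premature and newborn arteries, and the replication clamp PCNA had no call at any age. On the list of transfer RNA processing and mitochondrial translation, 19 of 24 others fell and 1 rose in the premature fetus, 15 of 23 fell and 1 rose in the newborn lamb and 9 of 23 fell in the near-term fetus, while limma called 0 of 25 list genes in the adult sheep (6 lower at an unadjusted p under 0.05). MRPS23 of the mitochondrial ribosome fell by 0.77 (SE 0.14), 0.62 (SE 0.13) and 1.44 (SE 0.31) at the 3 ages, and MRPS6 had no call at any age.

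Other rising members with a symbol and large differences were LRRC8C, a subunit of volume-regulated anion channels, at 2.21, 2.10, -0.10 and 0.94 in the premature, newborn, near-term and adult arteries, BAZ1A, a subunit of a chromatin remodelling complex, at 2.09, 2.66, -0.16 and 0.64, and TMEM86A, a lysoplasmalogenase, at 2.08, 1.80, 0.13 and 0.59. Among rising probes without a symbol, named here after their values were seen, A_70_P050121 differed by 2.25 and 2.50 in premature and newborn arteries, A_70_P060121 by 2.01 and 2.59, A_70_P017836 by 2.16 and 2.24 and A_70_P046701 by 2.00 and 2.05. Of these A_70_P017836 and A_70_P046701 were not well above background on any untreated premature array, so that they were at least 3.09-fold and at least 2.31-fold higher with PHE. Measured differences also rest on dim groups for BAZ1A and DDIT4 (2 of 4 untreated newborn arrays well above background), ATF6 (1 of 4 untreated premature arrays), A_70_P046701 (1 of 4 untreated newborn arrays), and C8H9ORF156 and EFNA4 (1 of 4 newborn PHE arrays). Near-term differences of named members rest on dim untreated groups for ATF6, A_70_P017836 and A_70_P046701 (1 of 4 arrays well above background) and for S100A9, BAZ1A, SOX9, TLR4, CDO1, PAFAH1B1 and A_70_P015806 (2 of 4). The remaining 22 rising probes with a symbol were those of RAB27A, CRISPLD2, TP53INP2, COTL1, SH3BP4, PRKRIP1, EAF1, C7H5ORF32, ATXN7, SLTM, IPMK, GLUL, JAKMIP1, PDP1, FAM50A, GIGYF2, GALNT1, DUSP14, CDO1, EIF3J, CCDC117 and PAFAH1B1. Among these RAB27A serves exocytosis, COTL1 binds actin, GLUL makes glutamine and DUSP14 removes phosphate from mitogen-activated kinases. The remaining 15 falling probes with a symbol were those of PKDCC, PEX10, FBXO22, TMEM86B, TMEM161B, TEF, C15ORF39, RUBCN, PICK1, RBM26, FAM134C, UBXN7, ERVW-1, VANGL1 and GPRC5B. Here PEX10 serves peroxisome assembly, RUBCN restrains autophagy, VANGL1 acts in planar cell polarity and TEF is a transcription factor of the circadian output. The 36 members without a symbol were 21 rising and 15 falling probes.

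**Figure D3:**
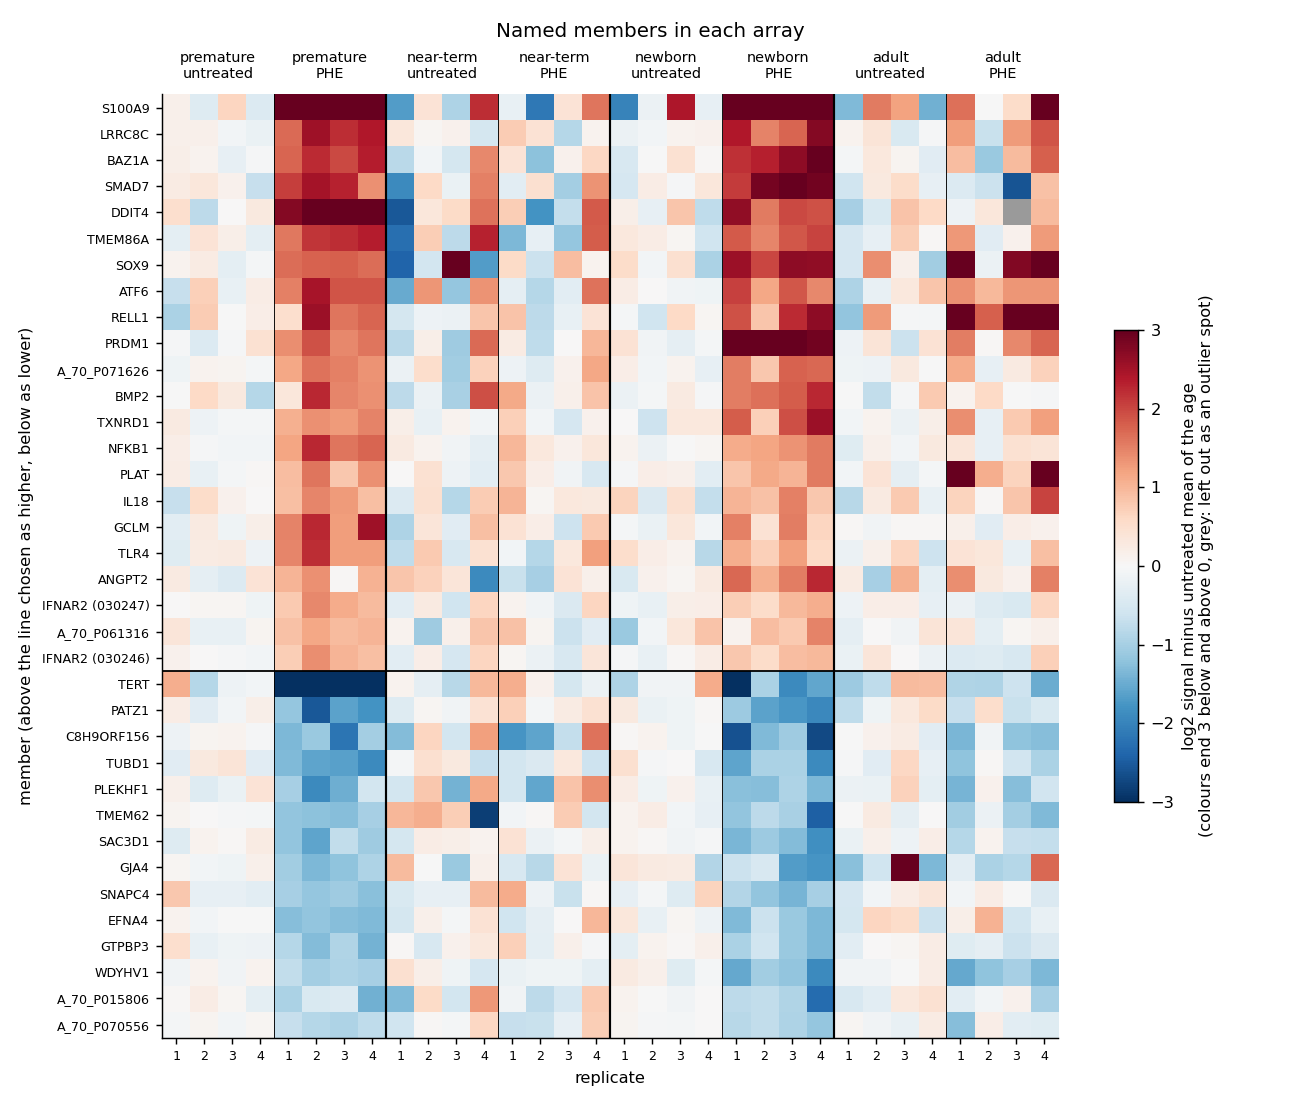
Named members (vertical) on each of the 32 arrays (horizontal, by group and replicate), coloured by log2 signal minus the untreated mean of the age, rising members above the line and falling members under it. Premature and newborn PHE arrays stand out by selection, and adult PHE replicate 2 is paler than PHE replicates 1, 3 and 4 for most rising members, with a median of -0.02.

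A gene's membership was that of a probe. For 9 genes of members another probe carried the same symbol, 11 probes in all, of which 6 passed the signal filter, and several of these differed in the near-term fetus. The other probe of DDIT4 stood at 1.61 there (member probe -0.22), that of SMAD7 at 1.26 (0.27) and that of PRDM1 at 0.98 (0.09), all in the rising direction, so that for these 3 genes the near-term limit held for 1 of the probes only. For IL18 another probe stood at 0.39 and for GJA4 at -0.31, just outside the limit, and the TEF probe that was no member at -1.23, with -0.32 and -0.15 in the premature and newborn arteries. The other probes of ANGPT2, TLR4 and TERT and 1 further probe of IL18 failed the signal filter, with near-term differences of -0.45 for ANGPT2, -0.65 for TLR4, -0.82 for IL18 and down to -1.38 for TERT. The 2 other TERT probes stood at -0.04 and -0.09 in the premature fetus, where the member is bounded at 1.89-fold lower, and since they failed the filter no disagreement is read from them.

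The adult arrays were not used in the choice, and their PHE contrast is the only one tested on members. Of the members, 92 were tested and 10 rising and 3 falling members were not, for lack of a group with all arrays well above background. The median adult difference was 0.53 for rising members (range -0.69 to 3.23) and -0.41 for falling members (range -1.39 to 0.16), beside -0.04 for all probes tested. Of the rising members tested, 49 of 53 were above 0, as 4273 of all 9583 probes were, and of the falling ones 34 of 39 were below 0, as 5310 of all were. By limma 1 of 53 rising members was called higher (1.89%, beside 1.71% of all probes), which is 1 of 3 tested through their PHE arrays only, and 1 of 39 falling members lower (2.56%, beside 0.292%), with 0 rising members called lower and 0 falling members called higher. At an unadjusted p under 0.05 and the same fold, 15 rising members were higher and 0 lower, and 9 falling members lower and 0 higher, beside 5.84% and 4.23% of all probes. Among tested members, all 4 PHE arrays lay above all untreated arrays for 6 rising members and below them for 7 falling members, as for 412 and 395 of all 9583 probes tested. Differences were 0.8 or more in the direction of the choice for 13 rising and 9 falling members and under 0.3 in size for 17 and 13. Of all 9583 probes tested, 554 were higher and 349 lower by 0.8 or more, and 5855 were under 0.3 in size. The responders at all 3 earlier ages had a median adult difference of 1.28, with 118 of 369 rising probes called higher, and of -0.60, with 9 of 180 falling probes called lower. No test was made between these responders and the members, or of a difference in response between ages.

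WDYHV1, an amidase of amino-terminal glutamine that feeds protein degradation, was the falling member called. It was -2.06, -2.05, -1.96 and -1.71 in untreated adult arteries and -3.48, -3.16, -2.95 and -3.30 with PHE. The difference of -1.28 (SE 0.17, 0.413 times the untreated level, lower on 4 of 4 PHE arrays) had an adjusted p of 0.00482 by limma, from 3.65e-05 to 0.0526 over other limma fits. Over those fits the difference ran from -0.72 under normexp to -1.37 without PHE replicate 3. The gene was called in 19 of 20 other limma fits and not in that of the slide that holds both adult groups, and the methods' own test with adjustment called 0 members. WDYHV1 in the premature fetus was -1.44, -1.24, -1.46 and -1.23 untreated and -2.07, -2.37, -2.27 and -2.33 with PHE, and in the newborn lamb -1.03, -1.15, -1.67 and -1.36 untreated and -2.84, -2.34, -2.48 and -3.21 with PHE. Near-term values were -2.14, -2.45, -2.74 and -3.12 untreated and -2.81, -2.74, -2.74 and -2.90 with PHE, all within the span of the untreated arrays.

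RELL1, a relative of a tumour necrosis factor receptor, was the rising member called. Adult RELL1 was -5.42, -2.96, -4.26 and -4.29 untreated, with 3 of 4 arrays well above background, and 0.24, -2.43, -0.94 and -0.86 with PHE. The difference of 3.23 (SE 0.62, 9.41-fold, higher on 4 of 4 PHE arrays) had an adjusted p of 0.0332 by limma, from 0.000181 to 0.181 over other limma fits, with differences from 2.29 under normexp to 3.71 without PHE replicate 2. RELL1 was called in 9 of 19 of these. It was tested through its PHE arrays only, the group in which it was high, and was not tested where all 8 adult arrays had to be well above background. The call was lost with no filter (adjusted p by limma 0.0643), with the slide as a block (0.146) and on the slide that holds both groups (0.181). With the replicate number as a block the call was lost too (adjusted p by limma 0.148), though numbers did not pair the adult arrays. It was also lost without PHE replicate 1 (adjusted p by limma 0.0770), 3 (0.0996) or 4 (0.0964) and without untreated replicate 1 (0.0918), 3 (0.0728) or 4 (0.112), with the difference at 2.82 to 3.23 in these fits. In the premature fetus RELL1 was -3.00, -1.28, -2.06 and -1.86 untreated and -1.54, 0.52, -0.44 and -0.30 with PHE, with PHE replicate 1 among the untreated values and higher values with PHE in 4 of 4 pairs of equal number. Newborn RELL1 was -2.42, -2.96, -1.75 and -2.30 untreated and -0.45, -1.53, -0.11 and 0.32 with PHE, and near-term RELL1 -2.19, -1.82, -1.84 and -0.83 untreated and -0.82, -2.46, -1.89 and -1.26 with PHE.

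Adult PHE replicate 2 lay nearest to the untreated arrays for members. Dixon's limit, described below, did not mark it for the median of rising or of falling members. Relative to the untreated mean, the median over rising members was 1.03, -0.02, 0.49 and 0.88 on PHE replicates 1 to 4, and over falling members -0.61, -0.06, -0.53 and -0.50. Since the array is picked out by these medians, a gain in member calls without it follows from that choice, and nothing is read from the gain. Without PHE replicate 2 limma called 16 members in the adult sheep, 11 rising and 5 falling, against 3.39% of all probes called higher and 1.04% lower. C8H9ORF156 then stood at -1.29 (SE 0.19), LRRC8C at 1.48 (SE 0.26) and PRDM1 at 1.58 (SE 0.29), each a call. RELL1 and WDYHV1 kept their calls, and CRISPLD2 at 2.74, BAZ1A at 1.22, TMEM62 at -1.13, PEX10 at -1.07, TXNRD1, FAM50A, SLTM, GALNT1, TP53INP2 and the unnamed A_70_P064951 and A_70_P050121 were the other calls gained, some of them named after their values were seen. Without any 1 of the PHE replicates 1, 3 and 4 or the untreated replicates 1, 3 and 4, WDYHV1 was the 1 member called, and without untreated replicate 2 both kept their calls. Over all probes, 192 were called with all arrays, 425 without PHE replicate 2, 106 without PHE replicate 3, 123 without untreated replicate 1 and 110 without untreated replicate 4.

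**Figure D4:**
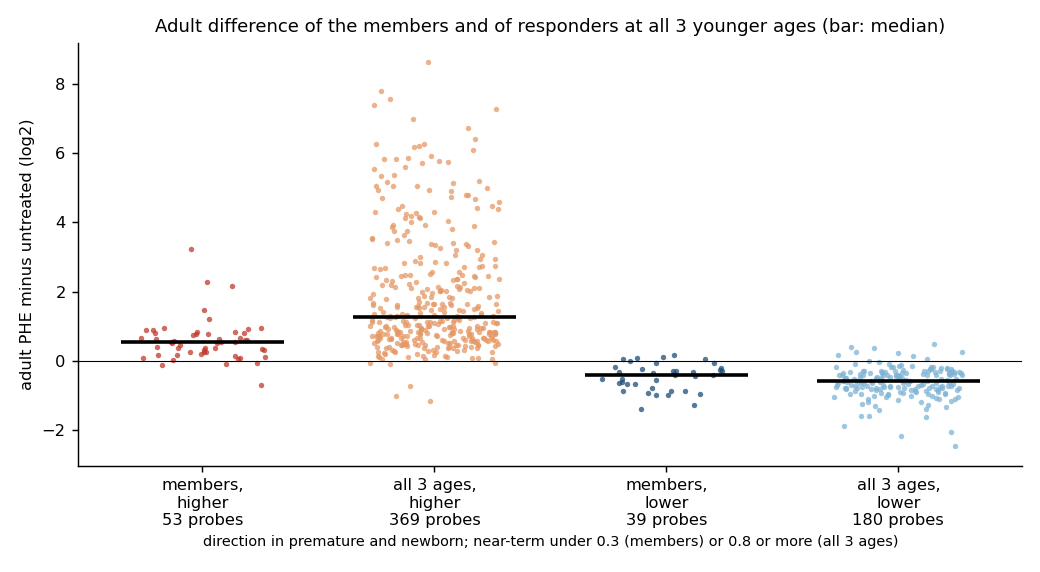
Adult difference between PHE and untreated (log2) of members and of responders at all 3 younger ages, with 1 point per probe and bars at medians. Rising members have a median of 0.53 and rising responders at all 3 ages 1.28, and falling ones -0.41 and -0.60.

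Near-term medians hid wide scatter between arrays. Relative to the untreated mean, the median over rising members was -0.41, 0.13, -0.19 and 0.64 on untreated replicates 1 to 4 and 0.07, -0.08, -0.33 and 0.62 on PHE replicates 1 to 4, and over falling members -0.01, 0.09, -0.16 and 0.19 untreated and -0.10, -0.13, 0.06 and 0.05 with PHE. The replicates numbered 4 were the highest for rising members in both groups. With 1 array left out, 74 of the 105 members stayed under the near-term limit without untreated replicate 1, 79 without replicate 2, 77 without replicate 3 and 59 without replicate 4, and 66, 68 and 72 without PHE replicates 2, 3 and 4. Without untreated replicate 4, the dimmest array, the median near-term difference was 0.25 for rising and 0.12 for falling members, and 4 rising members were at 0.8 or more. Without PHE replicate 4 the median of the rising members was -0.20, and 5 of them were lower by 0.8 or more. Without untreated replicate 1, 4 rising members were lower by 0.8 or more. Without untreated replicate 3, the array on which near-term SOX9 rested, 2 rising members were higher by 0.8 or more, the highest at 1.68. Without PHE replicate 2 there were 2 such members, and without PHE replicate 3 there was 1. Untreated replicate 4 was the only untreated array on the slide of the PHE arrays. Against it alone, the median was -0.58 for rising members, -0.20 for falling members and -0.11 for all probes past the filter. Under the limit were 14 of 63 rising and 15 of 42 falling members, beside 1778 of all 9062 probes.

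**Figure D5:**
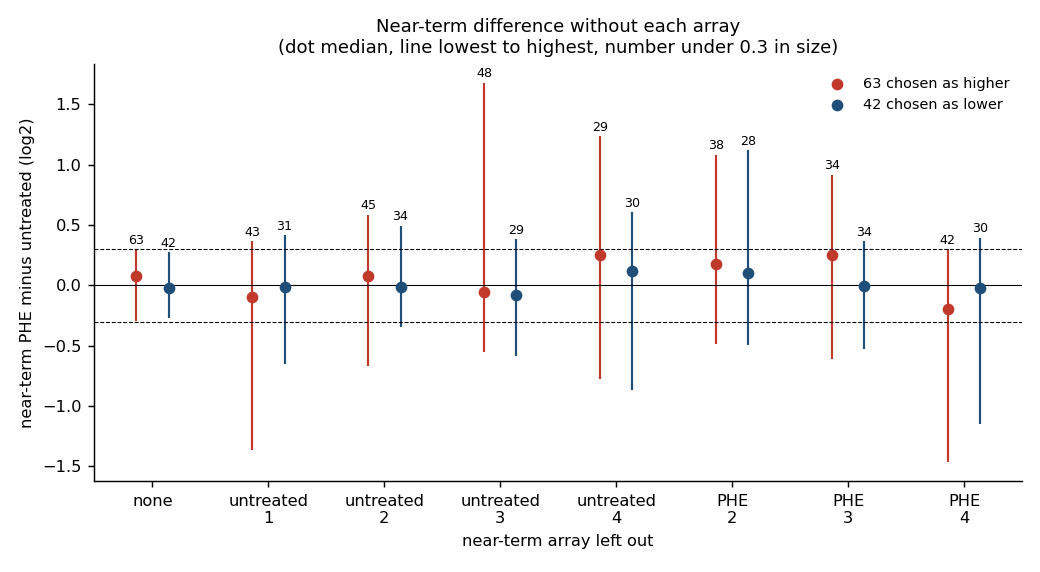
Near-term difference between PHE and untreated (log2) of rising and falling members with no array and with each array left out in turn, as the median (dot), the lowest to the highest member (line) and the number under 0.3 in size. With 1 array left out, 59 to 79 of the 105 members stay under 0.3.

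Near-term PHE replicate 1 was not used in the near-term difference and entered the choice through the background filter only. With that filter asked of the other 3 near-term PHE arrays, 109 probes passed, with BIRC3 and 3 unnamed probes added. As a single array it is described and not tested. Against the mean of the 4 untreated near-term arrays its median difference was 0.07 for rising and -0.10 for falling members. Responders at all 3 ages stood at 1.36 if rising and only -0.20 if falling. These untreated arrays also set the near-term difference in the choice, so nothing is read from this contrast. Under normexp the medians of rising and falling members were -0.51 and -0.59, and under quantile scaling 0.17 and 0.38. Against the untreated array of the same slide they were -0.51 and 0.005. Of the rising members 11 were higher by 0.8 or more and 5 lower, and of the falling members 7 were higher and 4 lower, beside 1376 higher and 1052 lower of all 9062 probes past the filter. On this array 15 of 63 rising members lay above all untreated near-term arrays and 6 below them, and 13 of 42 falling members above and 9 below, beside 1888 and 1747 of all 9062.

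Untreated levels by age cross the 2 scans and are a description. Of the 63 rising members, 31 were highest in the near-term fetus, as 2275 of all 9062 probes past the filter were, and 33 were lowest in the adult sheep, as 3073 of all were. Of the 42 falling members, 8 were highest in near-term arteries, and 15 were highest and 15 lowest in adult arteries. Of all 9062 probes, 2870 were highest in the adult sheep. The median span of the 4 untreated means was 1.46 for rising and 1.11 for falling members, beside 1.23 for all. Untreated arrays entered the choice, and no test was made.

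The mean profile of the rising named members over the 31 arrays without near-term PHE replicate 1 was most like those of A_70_P012436 (r = 0.959 between arrays), the cytokine IL10 (0.945), the hexokinase HK2 (0.938), the urokinase receptor PLAUR (0.936) and the chemokine CXCL5 (0.935). In the near-term fetus these probes differed by 0.56, 1.14, 2.05, 1.31 and 3.13 in the same order, so none was under the near-term limit. These correlations over arrays of 8 groups carry the differences between groups and are a description.

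The names and the thresholds limit what the members stand for. Symbols were missing for 36 of 105 members and most of the others were named through a list of altered genes, so roles cover part of the members. The choice rested on means of 4 arrays, or 3 for near-term PHE, and the near-term limit is smaller than the spread there. Labels and design text give different ages for 3 of the 4 groups. PHE was given at a single dose and time, and nothing in the arrays separates transcription from RNA stability. The near-term slide layout and the response cannot be told apart for the members, and a difference between ages was not tested.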

How the data were processed

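RNA of sheep middle cerebral artery segments was measured on 32 one-colour arrays, 4 per group. The deposited values are background-subtracted intensities that the authors obtained with Agilent Feature Extraction 9.5.3.1 and did not scale between arrays. From there, the 536 control spots per array were left out, outlier spots were set to missing and spots of 1 probe were averaged. The scaled value is log2 of intensity over the array's 75th percentile, taken over spots other than controls, so that 0 is that percentile. Signal over background sets what can be seen of dim probes, and the number of arrays limits precision.

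Probes chosen by the rule were counted singly, also where 2 carried 1 symbol. The signal filter asked all 4 arrays of a group to be well above background, near-term PHE replicate 1 included. For each age, limma 3.58.1 (lmFit, eBayes, two-sided) in R 4.3.3 compared 4 PHE with 4 untreated arrays, or 3 with 4 in the near-term fetus, which left out PHE replicate 1. A probe was tested if every array of either group at that age read well above background. A call needed 1.5-fold or more and a p, adjusted by Benjamini-Hochberg, under 0.05. Other steps ran in Python 3.11.15 (matplotlib 3.10.9, statsmodels 0.14.6, scipy 1.17.1, pandas 2.3.3 and numpy 2.4.6), and the fits were tested on simulated data. Members were tested in the adult sheep only. The percent of all probes called at each age is given once as the background to counts of calls on lists. A fold against a group without any array well above background is a lower bound, the bright group's mean over that of the dim group once each dim value is raised to the least signal above background that its array shows. For a gene that is no member, the probe with the highest mean signal is quoted. Among these, 1 of 2 other probes of INHBA disagreed, with 4.20 in the premature fetus against 0.48 for the probe quoted, and those of CAV1 disagreed in the near-term fetus.

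The reference list named 520 probes, the array file 726 and group means of the study's supplement 1749, which left 12013 unnamed. By age, the means of 1155 of 1269 premature, 1101 of 1106 near-term, 1012 of 1016 newborn and 437 of 438 adult genes fitted exactly 1 probe, and a shifted list gave 74, 3, 2 and 0. The matched name was that of the reference list for 54 of 61 probes and that of the array file for 112 of 147.

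The members, the lists of genes by role and the lists of cell markers were chosen with earlier results of these data known. Named are, among members with a symbol, the 10 rising and 10 falling with the largest smaller-of-2 difference, members called in the adult sheep (at most 10 each way), up to 3 members per role list, the 2 probes on each side of each threshold, up to 2 other genes per role list, those with the highest signal, and the 5 probes with the profile most like that of the rising named members. The role lists were NF-kB and Toll signalling, cytokines and receptors, plasminogen activators, transforming growth factor signalling, angiogenic factors, Wnt signalling, antioxidants, purine metabolism, sterol synthesis, smooth muscle and endothelial signalling, DNA replication, messenger RNA decay, transfer RNA processing, the respiratory chain and developmental transcription factors. Other members are listed to account for all.

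Whether replicate numbers pair the arrays was checked by correlating deviations from group means across probes. The 4 premature pairs of equal number had r of 0.398 to 0.511 and the 4 newborn pairs 0.484 to 0.558, so numbers pair the arrays at these ages, from the data only. As a paired fit, the replicate block took the calls over all probes from 3095 to 3242 in the premature fetus, 3093 of them in both, and from 1949 to 2258 in the newborn lamb, 1938 in both.

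Alternatives were normexp background correction (offset 50), quantile and median scaling, a floor of 0.01, other filters, other limits, the methods' t-test, unadjusted p, no fold threshold, replicate or slide as a block, 1 fit over all groups, the deposited table, 1 probe per symbol, names independent of the supplement and each array left out. Added after seeing the data were comparisons within a slide and detection over 3 near-term PHE arrays. Promoter motifs were planned and not run, since no sequences were available.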

Additional observations from a re-analysis of the deposited data

Results flagged for a closer look

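Within groups of 4 arrays, an array is given here when its distance to the nearest other array of its group took up more of the group's whole range than Dixon's limit for 4 values allows. Of 112 groups looked at, over array measures and key members, 7 had such an array, and chance marks about 1 in 20 groups. The 75th percentile of intensity was 1709 on adult untreated replicate 3, far above the rest of its group. The share of spots well above background was 95.55% on near-term PHE replicate 4 and 69.43% on adult PHE replicate 1, each far above its group. Among members, NFKB1 stood high on premature untreated replicate 1 (-0.66) and low on adult PHE replicate 2 (-0.56), the array on which the median of rising members also lay nearest to the untreated arrays. GJA4 stood low on newborn untreated replicate 4 (-2.25) and high on adult untreated replicate 3 (-3.16), the array with the highest 75th percentile. What set these arrays apart was not tested.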

How the results depend on the processing

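The 105 members depended on the processing. Normexp background correction gave 59 members, 8 of them shared, quantile scaling 89 (54 shared) and scaling to the median 116 (56 shared). A near-term limit of 0.2 gave 67 and of 0.5 gave 184, a size limit of 1.0 gave 56 and of log2 1.5 gave 228. With 1 array left out the number was 87 to 120, which does not mean the same probes. With near-term PHE replicate 1 kept, 127 passed, 85 of them members. The cause of the changes under normexp and scaling was not tested.

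Of the 2 members called in the adult sheep, the slide as a block, a filter on all 8 adult arrays and no filter each left 1. The slide that holds both groups left 0 by limma. At an unadjusted limma p, 6 members were higher and 6 lower on that slide, beside 757 and 394 of all 9583 probes. A fit of all 8 groups called 14 members, unadjusted limma 24, and the methods' t-test (Welch) 15 without and 0 with adjustment. With 1 array left out, 1 to 16 members were called, 16 without PHE replicate 2 and 1 without PHE replicate 1, 3 or 4 or untreated replicate 1, 3 or 4. Over all probes, 192 were called with all arrays, 520 in the fit of all groups, 125 within the slide, 655 and 9 by the methods' t-test without and with adjustment, 965 by unadjusted limma and 106 to 425 with 1 array left out, 425 without PHE replicate 2, 106 without PHE replicate 3, 123 without untreated replicate 1 and 110 without untreated replicate 4. Adult medians of the members kept their sign in every setting run and were 0.37 to 0.65 for rising and -0.53 to -0.30 for falling members with 1 array left out.

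Numbers did not pair the adult arrays (r = -0.110 to 0.0345 for the same number) or the near-term ones (-0.190 to 0.593), and adult arrays did not each correlate best with their own number. The replicate block, a paired fit, gave 2 members (WDYHV1 and the unnamed A_70_P047306 in place of RELL1), 154 probes and medians of 0.53 and -0.41. In the premature and newborn arteries it changed no call of the genes quoted from role lists that are no members. Calls of marker genes and counts over lists were not compared with this block.

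The median of rising members on near-term PHE replicate 1 was 0.07, against -0.51 under normexp, 0.17 under quantile and 0.29 under median scaling, -0.51 against the untreated array of its slide and -0.05 to 0.19 with 1 untreated array left out. For falling members it was -0.59 under normexp, 0.38 under quantile and 0.12 under median scaling. It was 0.005 against the untreated array of the same slide and -0.12 to -0.02 with 1 array left out. The cause was not tested. Low signal over background limits dim members such as TERT and SMAD7 to bounds.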

Other observations

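5 of the role lists held no member. Of the Wnt genes tested, 4 of 7 rose and 1 fell in the premature fetus, 4 of 7 rose and 1 fell in the newborn lamb, limma called 0 of 7 at the near-term age (at an unadjusted p, 2 were higher and 1 was lower), and 2 of 6 rose in the adult sheep, FRAT2 by 1.86 (SE 0.37), while FZD2 fell by 1.88 (SE 0.19) in the premature and 2.22 (SE 0.25) in the newborn arteries. Of the purine and polyamine genes 8 of 11 rose and 1 fell in the premature fetus, with ODC1 higher by 1.27 (SE 0.10) and HPRT1 without a call at any age. At the newborn age 8 of 11 rose and 1 fell, at the near-term age 2 of 11 rose, and in the adult sheep 1 of 9. Of the sterol genes 5 of 8 rose and 1 fell in the premature fetus, with LCAT lower by 1.42 (SE 0.23) and SQLE without a call at any age. At the newborn age 4 of 7 rose and 1 fell, and at the near-term age 3 of 7 rose. In the adult sheep limma called 0 of 7 (0 at an unadjusted p). Of the genes of messenger RNA decay 7 of 12 rose and 5 fell in the premature fetus and 4 of 13 rose in the adult sheep, where BTG2 was higher by 6.26 (SE 0.35) and ZFP36 by 3.90 (SE 0.19). Of the respiratory chain genes 10 of 24 fell in the premature fetus, 8 of 24 in the newborn lamb and 15 of 23 in the near-term fetus, where ATP5E fell by 1.70 (SE 0.28) and ATP5MC2 by 1.23 (SE 0.34). Of the fibroblast markers, the collagens COL1A1, COL1A2 and COL3A1 rose by 1.45, 1.89 and 1.10 in the premature fetus and by 4.41, 4.76 and 4.11 in the near-term fetus, while DCN stood at -0.47 and -0.73 with no call. In newborn arteries DCN was called, at 0.77, and the collagens stood at 1.29, 1.31 and 0.98 with no call. Of the red cell markers HBA1 fell by 1.96, 1.01 and 2.83 in the premature, newborn and near-term arteries, and HBB, at -0.71, 0.08 and -0.92, had no call. Of the smooth muscle markers 0 of 2 tested and of the fat markers 0 of 1 were called by limma in the premature fetus (0 at an unadjusted p), while 2 of 3 brain markers fell there. Of the endothelial markers in the near-term fetus, TIE1 was called higher, with only 1 of 4 untreated arrays well above background (measured difference 2.27), and KDR and SELE, at -1.89 and -0.58, were too dim to be tested. For adult arteries limma called 0 of the 4 fibroblast, 2 smooth muscle, 2 fat, 1 brain and 1 red cell markers tested (1 smooth muscle marker, CALD1, lower at an unadjusted p), at 1.71% and 0.292% of all probes called higher and lower (5.84% and 4.23% at an unadjusted p).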
